A study of Mus musculus with 18 samples.

Results

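Wild-type (WT) mouse bone marrow cells selected for the surface receptor cKit were treated with the compound C16 or with its vehicle, DMSO, and their RNA was sequenced. The comparison takes in 6 of the 18 libraries of the study, 3 with C16 and 3 with DMSO, chosen by their labels for genotype and treatment, and all genes of the count table. The other groups are WT cells with a second compound, RE, and cells carrying AE9a, a splice form of the leukemia fusion AML1-ETO, with C16, RE or DMSO. The study set out to follow inhibition of WDR5 and of MLL1 in WT and AE9a blood progenitors, but the target, dose and exposure time of either compound are not stated in the labels. Mouse strain, age, sex and the number of animals are not given in the sources used here, and neither is how AE9a was introduced. All groups share the tissue and the cKit selection. Nothing in the labels says that the replicates came from separate animals or cultures, so p-values measure the spread between these libraries, which may be technical.

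WDR5 is a scaffold protein that holds together the complexes in which MLL-family enzymes methylate lysine 4 of histone H3, a mark of active promoters. WDR5 also binds MYC and sits at promoters of genes for making ribosomes. MLL1, encoded by Kmt2a, with its partner menin, keeps HOXA genes and Meis1 on in blood stem cells and in some leukemias. Cells with cKit in the bone marrow are a mixture of stem cells and early progenitors of the myeloid, erythroid and megakaryocyte lines, together with mast cells, and megakaryocytes are the large cells that shed platelets.

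The 6 libraries held 17328023 to 20500907 fragments assigned to genes, and 15046 genes had enough counts for testing. Levels are given as CPM, fragments scaled to library size by TMM, in replicates 1, 2 and 3 in that order, first under C16 and then under DMSO. Kit, the gene of the selection marker, stood at 112, 131 and 116 CPM under C16 and at 125, 60.4 and 130 CPM under DMSO, and did not pass the test (log2 0.19 ± 0.38, adjusted p = 0.80). Nanog, a pluripotency gene mentioned in the study's aim, was at 0 fragments in each of the 6 libraries, where a floor of 3 fragments equals 0.146 to 0.173 CPM. Runx1t1, the fusion partner carried by AE9a, was at most 0.267 CPM under C16 and at most 0.153 CPM under DMSO. The summed level of 12 listed stromal genes was 31.1 to 34.02 CPM under C16 and 31.2 to 42.5 CPM under DMSO, and that of 21 listed T and NK cell genes was 31.8 to 128 CPM under C16 and 36.6 to 60.8 CPM under DMSO. The 10 listed endothelial genes summed to 168 to 322 CPM under C16 and 274 to 340 CPM under DMSO, most of it Pecam1, which blood cells also express, at 135 to 213 CPM under C16 and 241 to 274 CPM under DMSO, while Cdh5, the endothelial cadherin gene, was at most 0.428 CPM under C16 and 0.619 CPM under DMSO. The 12 listed osteoclast genes summed to 357 to 3071 CPM under C16 and 371 to 1135 CPM under DMSO, of which Itgb3, a platelet gene as well, made up 181 to 2746 CPM under C16 and 188 to 838 CPM under DMSO.

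Replicate 2 stood apart from replicates 1 and 3 in both groups. The root mean square log2 difference over tested genes was 0.24 between C16 replicates 1 and 3 and 0.24 between DMSO replicates 1 and 3. C16 replicate 2 lay 0.93 and 0.98 from C16 replicates 1 and 3, and DMSO replicate 2 lay 0.70 and 0.69 from DMSO replicates 1 and 3. C16 and DMSO libraries of the same number lay 0.57, 0.52 and 0.62 apart. Replicate 2 held few transcripts of megakaryocytes: the 22 listed marker genes summed to 1032 CPM in its C16 library and 1191 CPM in its DMSO library, against 14240 and 15990 CPM in the other C16 libraries and 5023 and 4533 CPM in the other DMSO libraries. It held more of some early myeloid transcripts. Mpo, the myeloperoxidase gene of granulocyte precursors, stood at 1329, 5629 and 1071 CPM under C16 and at 1228, 4440 and 1363 CPM under DMSO. In these bulk samples, fewer cells of a type and less RNA per cell cannot be told apart.

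The number of changed genes depended on whether the replicate number entered the model. Without it, edgeR's quasi-likelihood test with Benjamini-Hochberg adjustment called 144 genes higher and 323 lower under C16, which is 0.957% and 2.15% of the genes tested (3.1% in all). With the replicate number as a block, it called 1565 higher and 2081 lower, 10.4% and 13.8% of the genes tested (24.2% in all). All 467 genes called without the block were among the 3646 called with it, and 3525 of the 3646 moved the same way in all 3 same-number pairs. Over all 15046 genes tested, 4209 were higher and 4539 lower under C16 in all 3 pairs. The block favours genes whose pairs agree, so the 3525 are no separate check of the calls. Without the 3 WT libraries of replicate 2, 3168 genes were called higher and 3173 lower (20.8% and 20.9%), and 3521 of the 3646 genes were called there too, each with the same sign. That fit shares the libraries of replicates 1 and 3 with the blocked fit, so this overlap is no separate check either. Calls without the block needed replicates 1 and 3. The unblocked count was 0 without C16 replicate 1, C16 replicate 3 or DMSO replicate 1, with 2828, 2756 and 2360 genes at unadjusted p under 0.05. It was 2 without DMSO replicate 3, 253 without DMSO replicate 2, and 1329 without C16 replicate 2. With the block, the count was 0 without replicate 1 (3481 genes at unadjusted p under 0.05) and 3 without replicate 3. In the account that follows, a change is called without the block unless the block is named.

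A first group of changes was found in replicate 2 as well as in replicates 1 and 3. Eosinophil granule genes were among those that fell furthest. Epx (chromosome 11, 87754824 to 87766362, GRCm39), the eosinophil peroxidase gene, stood at 6.04, 11.8 and 8.13 CPM under C16, against 132, 146 and 328 CPM under DMSO. Every C16 library lay far under every DMSO library, and the log2 change was −4.55 ± 0.42 (adjusted p = 0.0175). Prg2, which encodes the major basic protein of eosinophil granules, stood at 26.0, 28.2 and 21.7 CPM under C16, against 174, 176 and 415 CPM under DMSO (log2 −3.34 ± 0.36, adjusted p = 0.0183). Its relative Prg3 stood at 1.64, 3.13 and 1.39 CPM under C16, against 10.5, 14.2 and 24.1 CPM under DMSO (log2 −2.98 ± 0.46, adjusted p = 0.0255). Il5ra, the receptor subunit through which interleukin 5 acts on eosinophils, stood at 1.89, 1.28 and 1.498 CPM under C16, against 6.64, 2.96 and 10.5 CPM under DMSO, and was called lower with the block (log2 −1.98 ± 0.31, adjusted p = 0.00666). Of 10 eosinophil genes tested, 3 fell, 8 fell with the block and 0 rose in either fit, with a median log2 change of −2.14 against 0.01 over all genes tested. Over all genes tested, 2.15% fell without the block and 13.8% with it. The 11 listed genes in the count table summed to 67.9, 99.7 and 53.2 CPM under C16 and to 370, 449 and 854 CPM under DMSO.

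**Figure D1:**
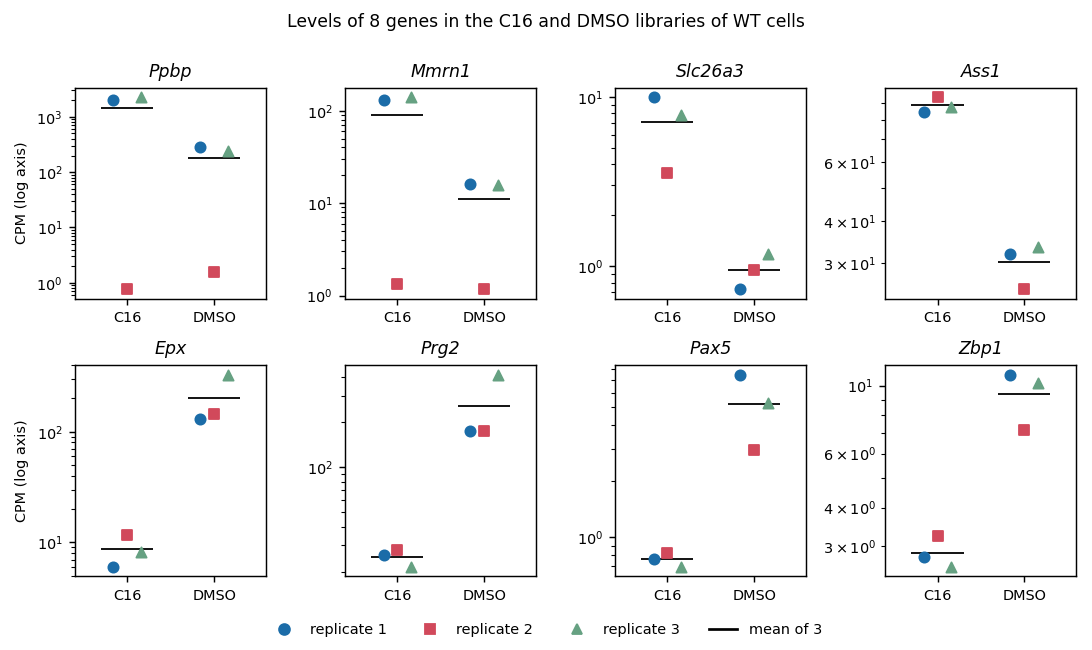
Levels in CPM (log axis) of 8 genes in the 3 C16 and 3 DMSO libraries of WT cells, with a symbol per replicate number and a line at the mean of 3 libraries. Epx, Prg2, Pax5 and Zbp1 lie lower and Slc26a3 and Ass1 higher in every C16 library than in any DMSO library, whereas Ppbp and Mmrn1 are high in replicates 1 and 3 only.

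Genes of the B lineage fell as well, from low levels. Pax5 (chromosome 4, 44524748 to 44710694), the transcription factor that commits cells to the B lineage, stood at 0.768, 0.821 and 0.695 CPM under C16, against 7.48, 2.96 and 5.26 CPM under DMSO (log2 −2.77 ± 0.44, adjusted p = 0.0274). Its C16 libraries lay close together and under all DMSO libraries. Cd22, a B cell surface receptor, fell with the block (log2 −1.80 ± 0.30, adjusted p = 0.0076), but its C16 and DMSO libraries overlapped because DMSO replicate 2 stood at 3.74 CPM. Of 17 B lineage genes tested, 6 fell, 11 fell with the block and 0 rose in either fit, with a median log2 change of −1.99. The shares of all genes tested that fell were 2.15% without the block and 13.8% with it. The list was not uniform: Ighm, the heavy chain gene of IgM, which is also transcribed in early progenitors, stood at 124, 226 and 124 CPM under C16 and at 183, 128 and 134 CPM under DMSO (log2 0.09, adjusted p = 0.883).

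Type I interferon response genes, which cells switch on against viruses, were lower under C16. Of 33 such genes tested, 6 fell, 23 fell with the block and 0 rose in either fit. Their median log2 change was −0.95, and it was −0.96, −0.51 and −0.81 in pairs 1, 2 and 3. Among all genes tested, 2.15% fell without the block and 13.8% with it. Zbp1 (chromosome 2, 173048405 to 173060715), which encodes a sensor of Z-form nucleic acid, stood at 2.76, 3.23 and 2.57 CPM under C16, against 10.9, 7.15 and 10.2 CPM under DMSO (log2 −1.72 ± 0.20, adjusted p = 0.0183). The C16 libraries lay within a narrow range under all 3 DMSO libraries. Oas3, an oligoadenylate synthetase that senses double-stranded RNA, stood at 6.96, 5.75 and 5.83 CPM under C16, against 28.6, 9.44 and 22.6 CPM under DMSO, and fell with the block (log2 −1.60 ± 0.24, adjusted p = 0.00562). Its relative Oas1g fell with the block (log2 −2.34 ± 0.42, adjusted p = 0.0103), and so did Ifi27l2a, another interferon-induced gene (log2 −1.81 ± 0.40, adjusted p = 0.019). Outside the list, Ifi209, of the interferon-inducible p200 family, stood at 2.97, 3.64 and 2.14 CPM under C16, against 20.2, 14.4 and 14.9 CPM under DMSO (log2 −2.49 ± 0.30, adjusted p = 0.0183).

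Interferon-stimulated genes are known to be switched on through a short element with a repeated GAAA core in their promoters. It was searched as GAAA, any 2 bases and GAAA again, 10 letters in all, on both strands of the 300 bases from 250 before to 50 after each gene's start, in RefSeq sequences of build GRCm38.p6. The motif was present in 14 of the 24 interferon genes with a promoter in the table (58.3%) and in 3.99% of all 27025 genes there. Of the 12 genes tested that had it, 9 fell with the block, and of 10 tested that lacked it, 6 did. The promoters of Oas1g, chr5:120887564-120887863 (minus strand), and Oas3, chr5:120777610-120777909 (minus strand), are shown because these are the 2 of the 4 named interferon genes that the table holds. They run 5′ to 3′ along the gene, with the motif in capitals. In Oas1g its 2 matches overlap.
Oas1g: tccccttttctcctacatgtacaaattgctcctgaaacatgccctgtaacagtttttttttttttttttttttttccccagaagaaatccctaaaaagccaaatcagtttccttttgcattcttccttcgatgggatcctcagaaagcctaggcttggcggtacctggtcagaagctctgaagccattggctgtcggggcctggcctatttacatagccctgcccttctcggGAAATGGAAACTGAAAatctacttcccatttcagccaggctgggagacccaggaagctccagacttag
Oas3: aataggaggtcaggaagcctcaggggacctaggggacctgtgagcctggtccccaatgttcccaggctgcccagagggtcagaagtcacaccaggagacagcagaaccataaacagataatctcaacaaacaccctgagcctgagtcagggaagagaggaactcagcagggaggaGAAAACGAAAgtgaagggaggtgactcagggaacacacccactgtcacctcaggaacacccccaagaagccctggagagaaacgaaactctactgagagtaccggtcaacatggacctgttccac
The matches begin 18 and 12 bases before the start of Oas1g and 75 bases before that of Oas3. They describe the sequence and say nothing of what is bound there.

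Genes of monocytes and macrophages were lower under C16 as well. Lyz2, the lysozyme gene of myeloid cells, stood at 784, 1028 and 753 CPM under C16, against 2646, 2667 and 2043 CPM under DMSO, and fell with the block (log2 −1.55 ± 0.34, adjusted p = 0.0185). Ccr2, the receptor that brings monocytes out of the marrow, stood at 57.4, 171 and 39.3 CPM under C16, against 278, 370 and 224 CPM under DMSO, and fell with the block (log2 −1.92 ± 0.30, adjusted p = 0.0064). The groups of both genes did not overlap. Ly6c2, a surface marker of inflammatory monocytes, and Cd14, a co-receptor for lipopolysaccharide, fell with the block too (log2 −2.03 ± 0.22 and −1.80 ± 0.18, adjusted p = 0.00288 and 0.00245). Csf1r, the receptor that drives monocyte growth, stood at 43.8, 148 and 42.7 CPM under C16, against 139, 236 and 110 CPM under DMSO (log2 −1.24 ± 0.18 with the block, adjusted p = 0.00493). Of 29 monocyte and macrophage genes tested, 3 fell, 16 fell with the block and 0 rose in either fit, with a median log2 change of −0.92. Among all genes tested, 2.15% fell without the block and 13.8% with it.

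The lysosome list had the most unblocked calls of all lists by number, though the shorter B lineage and eosinophil lists had higher shares. Of 35 lysosome genes tested, 9 fell, 22 fell with the block, and 0 rose in either fit, with a median log2 change of −0.46. The shares of all genes tested that fell were 2.15% without the block and 13.8% with it. Grn (chromosome 11, 102321333 to 102327635), which encodes progranulin, stood at 267, 417 and 246 CPM under C16, against 871, 746 and 727 CPM under DMSO (log2 −1.34 ± 0.21, adjusted p = 0.0255). Naglu, a lysosomal enzyme that degrades heparan sulfate, stood at 22.3, 27.9 and 22.2 CPM under C16, against 51.0, 60.7 and 49.2 CPM under DMSO (log2 −1.15 ± 0.15, adjusted p = 0.0193). Neither gene had a C16 library within the DMSO range. The cathepsin gene Ctsh and the beta-galactosidase gene Glb1 fell with the block (log2 −1.16 ± 0.17 and −1.04 ± 0.11, adjusted p = 0.00576 and 0.00284). Macrophages are rich in lysosomes. The 30 listed monocyte and macrophage genes summed to 2430 to 3649 CPM under C16 and to 4663 to 7331 CPM under DMSO, and the part of this in the lysosome result was not tested.

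Later neutrophil and mast cell genes fell less uniformly. Cxcr2, the chemokine receptor that draws neutrophils out of the marrow, stood at 70.0, 53.9 and 55.8 CPM under C16, against 157, 108 and 163 CPM under DMSO (log2 −1.25 ± 0.17, adjusted p = 0.0205). Il1r2, the decoy receptor of interleukin 1, and Mmp8, the neutrophil collagenase, fell with the block (log2 −2.33 ± 0.25 and −1.82 ± 0.31, adjusted p = 0.00284 and 0.0082). Of 22 late neutrophil genes tested, 1 fell and 8 fell with the block. Among 18 mast cell and basophil genes tested, 0 fell without the block and 10 fell with it. Over all genes tested, 2.15% fell without the block and 13.8% with it. Cpa3, the mast cell carboxypeptidase gene, stood at 898, 350 and 883 CPM under C16, against 1343, 648 and 1505 CPM under DMSO (log2 −0.74 ± 0.10 with the block, adjusted p = 0.00406). Il1rl1, the receptor of interleukin 33, stood at 293, 120 and 286 CPM under C16, against 538, 245 and 597 CPM under DMSO (log2 −0.99 ± 0.09 with the block, adjusted p = 0.00189). In each same-number pair both genes were lower under C16. Gata2, a transcription factor of stem cells and mast cells, fell with the block as well (log2 −0.51 ± 0.08, adjusted p = 0.00754), and Gata1, its relative in erythroid cells and megakaryocytes, did not pass the test in either fit (log2 0.53 ± 0.74, and 0.33 ± 0.22 with the block, adjusted p = 0.712 and 0.30).

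**Figure D2:**
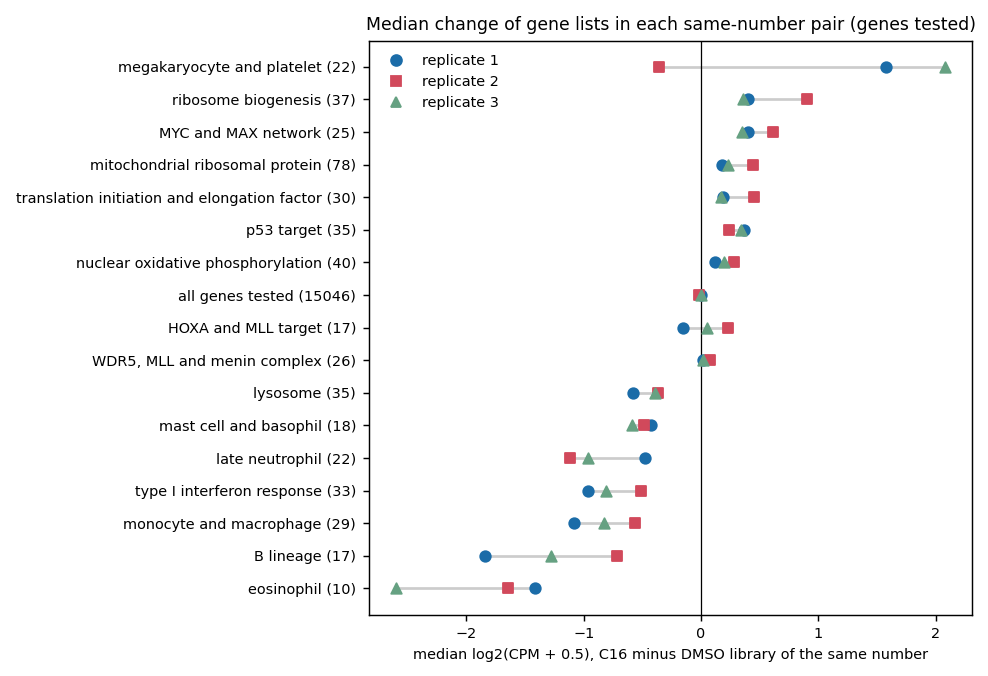
Median difference in log2(CPM + 0.5) between the C16 and the DMSO library of the same number, over the tested genes of 16 lists and over all genes tested, with a symbol per replicate number. Lists from ribosome biogenesis down to nuclear oxidative phosphorylation lie above 0 and those from lysosome down to eosinophil below 0 in all 3 pairs. The megakaryocyte and platelet list is at 1.58 and 2.08 in pairs 1 and 3 and at −0.36 in pair 2.

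Without the block fewer genes rose than fell. The 10 with the largest rise, among those at 5 CPM or more under C16 with groups that did not overlap, belong to none of the lists. Slc26a3 (chromosome 12, 31483141 to 31523921), an exchanger of chloride and bicarbonate, stood at 9.98, 3.54 and 7.86 CPM under C16, against 0.731, 0.949 and 1.17 CPM under DMSO (log2 2.89 ± 0.42, adjusted p = 0.0233). Sulf2, which removes sulfate groups from heparan sulfate outside the cell, stood at 50.9, 19.4 and 50.9 CPM under C16, against 10.5, 4.41 and 9.65 CPM under DMSO (log2 2.30 ± 0.45, adjusted p = 0.0385). In both genes the lowest C16 library is replicate 2, and it still lies above all DMSO libraries. Gja1, the gap junction gene of connexin 43, was highest in replicate 2, at 35.7, 60.0 and 38.1 CPM under C16, against 9.51, 18.6 and 10.1 CPM under DMSO (log2 1.81 ± 0.30, adjusted p = 0.029). Ass1, the argininosuccinate synthase of the urea cycle, was even across replicates at 84.2, 93.5 and 87.5 CPM under C16, against 31.8, 25.1 and 33.5 CPM under DMSO (log2 1.55 ± 0.15, adjusted p = 0.0175). The others were Adgrl1, an adhesion receptor, the kinase gene Stk39, the gelatinase gene Mmp2, the protocadherin gene Pcdh7, the scaffold gene Homer2 and the neurofilament gene Nefh, whose log2 changes were 1.91, 1.70, 1.68, 1.62, 1.40 and 1.30.

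Genes for building ribosomes rose by small amounts in every pair. Of 37 ribosome biogenesis genes tested, all 37 were higher under C16 in each of the 3 pairs, as were 28.0% of all genes tested. Of the 37, 1 rose without the block and 27 with it, 0 fell in either fit, and the median log2 change was 0.58. Over all genes tested, 0.957% rose without the block and 10.4% with it. Npm1 (chromosome 11, 33102498 to 33114143), the nucleolar protein nucleophosmin, stood at 1248, 2241 and 1206 CPM under C16, against 780, 926 and 854 CPM under DMSO, and rose with the block (log2 0.83 ± 0.17, adjusted p = 0.0149). Ncl, which encodes nucleolin, stood at 1736, 2688 and 1608 CPM under C16, against 1071, 1156 and 1170 CPM under DMSO, and rose with the block (log2 0.81 ± 0.18, adjusted p = 0.0205). The rise was largest in replicate 2 for both, and the C16 libraries lay above all DMSO libraries. Nhp2, a core protein of small nucleolar RNA particles, was the 1 call without the block, at 119, 168 and 123 CPM under C16, against 78.1, 90.0 and 82.2 CPM under DMSO (log2 0.71 ± 0.14, adjusted p = 0.0393). Nat10, an acetyltransferase of ribosomal RNA, rose with the block (log2 0.69 ± 0.17, adjusted p = 0.0284).

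Several targets and partners of MYC, a transcription factor of growth, were higher under C16. Of 25 genes of the MYC and MAX network tested, 4 rose without the block, and 13 rose and 2 fell with it. Prmt5, an arginine methyltransferase, stood at 118, 164 and 119 CPM under C16, against 70.9, 73.3 and 72.1 CPM under DMSO (log2 0.89 ± 0.15, adjusted p = 0.0286). Hspd1, a mitochondrial chaperonin, and Odc1, the first enzyme of polyamine synthesis, rose with the block (log2 0.89 ± 0.21 and 0.84 ± 0.21, adjusted p = 0.0254 and 0.0263). Mxd3, a MAX partner that opposes MYC, fell with the block (log2 −0.74 ± 0.14, adjusted p = 0.0109). Myc itself stood at 167, 278 and 159 CPM under C16 and at 147, 166 and 147 CPM under DMSO, with no call in either fit (log2 0.39 ± 0.22, adjusted p = 0.33, and adjusted p = 0.0761 with the block). With the block, 10.4% of all genes tested rose and 13.8% fell. In the same fit 22 of 78 mitochondrial ribosomal protein genes rose and 1 fell. Of 30 translation factor genes 12 rose and 0 fell, and of 40 oxidative phosphorylation genes 8 rose and 0 fell. Cytosolic ribosomal protein genes were split, with 11 rising and 16 falling of 82, shares not far from those over all genes. The near-identical copies of cytosolic ribosomal protein genes in the genome make these last counts uncertain. Of the cell cycle genes, 3 of 42 for DNA replication rose with the block and 0 fell, and 1 of 43 for mitosis rose and 1 fell. These shares were under those over all genes.

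The second group of changes was carried by replicates 1 and 3. Megakaryocyte and platelet genes were several times higher under C16 in these replicates, and far lower in replicate 2 under both treatments. Ppbp (chromosome 5, 90916377 to 90917922), the platelet basic protein gene, stood at 2035, 0.77 and 2271 CPM under C16, against 284, 1.56 and 245 CPM under DMSO. Replicate 2 lay under all other libraries in both groups, so the groups overlapped. The log2 change was 3.02 ± 2.31 without the block (adjusted p = 0.475), 2.58 ± 0.71 with it (adjusted p = 0.0369) and 3.03 without the replicate 2 libraries (adjusted p = 5.73e-07). The last p-value measures only the spread between replicates 1 and 3, whose root mean square log2 difference was 0.24 in both groups. Mmrn1, which encodes the platelet protein multimerin 1, stood at 131, 1.33 and 140 CPM under C16, against 15.98, 1.17 and 15.7 CPM under DMSO, and rose with the block (log2 2.74 ± 0.45, adjusted p = 0.00759). Of 22 listed genes, 0 rose without the block, 12 rose with it, and 20 rose and 1 fell without replicate 2. Over all genes tested, 0.957%, 10.4% and 20.8% rose in these edgeR fits, and 20.9% fell in the last. DESeq2 without the block also called 0 of the 22. The whole edgeR fit without the block had 3430 genes at unadjusted p under 0.05.

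Other genes of this line behaved alike. Gp1bb, a subunit of the platelet receptor for von Willebrand factor, stood at 126, 0.975 and 161 CPM under C16, against 24.1, 0.949 and 18.2 CPM under DMSO (log2 2.45 ± 0.46 with the block, adjusted p = 0.0114). Slamf1, which encodes CD150, a marker of stem cells and megakaryocyte precursors, stood at 58.5, 0.154 and 58.9 CPM under C16, against 10.7, 0.335 and 10.7 CPM under DMSO (log2 2.27 ± 0.38 with the block, adjusted p = 0.0082). Itgb3, the integrin beta chain of the fibrinogen receptor, kept a level in replicate 2, with 2429, 181 and 2746 CPM under C16, against 838, 188 and 762 CPM under DMSO (log2 1.18 ± 0.34 with the block, adjusted p = 0.0423). Pf4, platelet factor 4, missed the threshold with the block, at 1625, 13.8 and 1791 CPM under C16 against 339, 21.8 and 272 CPM under DMSO (log2 1.78 ± 0.62, adjusted p = 0.0718). For none of the 22 genes did the C16 and DMSO libraries part without overlap, which 29.4% of all tested genes did.

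**Figure D3:**
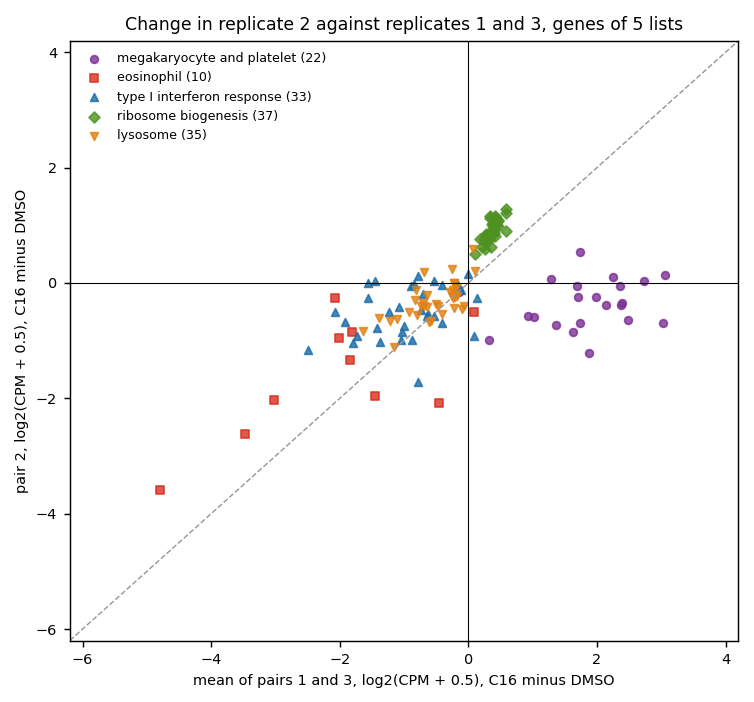
Difference in log2(CPM + 0.5) between C16 and DMSO in pair 2 (vertical) against the mean of pairs 1 and 3 (horizontal) for the tested genes of 5 lists, with equal change on the dashed line. Eosinophil genes lie toward the lower left and ribosome biogenesis genes above the line at the upper right, and megakaryocyte and platelet genes lie far to the right but near or under 0 in pair 2.

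Genes of the megakaryocyte line are known targets of ETS-family factors. The core AGGAAG, searched on both strands, was present in the promoters of 13 of the 19 listed genes in the table (68.4%), and in 38.4% of all genes there. With the block, 5 of the 13 genes with a match rose, and 5 of the 6 without a match. Of the 4 named genes of the list, Gp1bb and Slamf1 hold a match and Ppbp and Mmrn1 hold 0 matches. The 2 promoters with a match, chr16:18622354-18622653 (minus strand) and chr1:171766882-171767181 (plus strand), are shown as above in GRCm38.p6 coordinates, with the motif in capitals.
Gp1bb: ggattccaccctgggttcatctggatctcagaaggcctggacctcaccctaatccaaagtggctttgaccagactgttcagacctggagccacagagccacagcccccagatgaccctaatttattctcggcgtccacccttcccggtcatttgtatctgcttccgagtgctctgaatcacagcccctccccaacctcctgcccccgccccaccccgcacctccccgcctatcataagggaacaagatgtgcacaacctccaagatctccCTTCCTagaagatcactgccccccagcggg
Slamf1: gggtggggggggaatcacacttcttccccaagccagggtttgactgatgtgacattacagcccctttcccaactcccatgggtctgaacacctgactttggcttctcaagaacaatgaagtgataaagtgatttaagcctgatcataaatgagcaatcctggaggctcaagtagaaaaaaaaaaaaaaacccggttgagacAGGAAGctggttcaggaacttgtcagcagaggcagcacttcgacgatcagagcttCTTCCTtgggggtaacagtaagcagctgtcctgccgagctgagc
The match in Gp1bb begins 20 bases after the gene start. Those in Slamf1 begin 49 bases before and 6 bases after it.

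The 12 largest rises with the block, among genes higher under C16 in all 3 pairs and with a C16 mean of at least 5 CPM, were in genes outside the lists, and each had its lowest level of either group in replicate 2. Clca3a1, a chloride channel regulator, stood at 99.4, 0.462 and 105 CPM under C16, against 7.09, 0.391 and 7.76 CPM under DMSO (log2 3.54 ± 0.48, adjusted p = 0.00445). Sytl4, which tethers secretory granules, stood at 58.3, 1.03 and 62.2 CPM under C16, against 5.401, 0.335 and 5.11 CPM under DMSO (log2 3.36 ± 0.25, adjusted p = 0.00142). In both, replicate 2 was the lowest library of its group. Lrrc32, which holds latent TGF-beta on platelets, Ly6g6f, a platelet surface protein gene, Plxna4, a semaphorin receptor, and the cadherin gene Fat1 changed by 2.91, 3.24, 2.94 and 2.92. Dok6, Chsy3, Lhfpl6, P3h2 and Igfbp5 changed by 4.21, 3.38, 3.36, 3.39 and 3.44. Prkaa2, a catalytic subunit of the energy sensor AMPK, stood at 20.3, 2.31 and 23.8 CPM under C16, against 2.31, 0.558 and 2.30 CPM under DMSO (log2 3.06 ± 0.30, adjusted p = 0.00224).

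Several of the 12 largest falls with the block had no part in the lists. Scel, which encodes sciellin of the epithelial envelope, the noncoding RNA gene Snhg11, Arhgef37 and the sulfotransferase gene Chst3 were also called without it, with unblocked log2 changes of −3.02, −3.27, −3.06 and −2.61, and As3mt, an arsenic methyltransferase gene, with one of −2.17. The globin genes Hbb-bt and Hba-a1 fell with the block alone, with log2 changes of −3.22 ± 0.12 (adjusted p = 0.000178) and −2.92 ± 0.21 (adjusted p = 0.00142). Hbb-bt stood at 8.14, 1.23 and 8.66 CPM under C16, against 72.6, 15.6 and 70.8 CPM under DMSO, and no C16 library reached the lowest DMSO library. Globin genes have near-identical copies, so the split of fragments between copies is uncertain. Of 23 erythroid genes tested, 4 rose and 3 fell with the block, as did 10.4% and 13.8% of all genes tested. Olfml2b, which encodes an extracellular matrix protein, was highest in replicate 2, at 5.89, 35.4 and 4.76 CPM under C16, against 41.4, 174 and 40.2 CPM under DMSO (log2 −2.72 ± 0.19 with the block, adjusted p = 0.00129).

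Of 35 targets of p53 tested, 0 were called without the block by edgeR or by DESeq2, and 15 rose and 2 fell with it in edgeR. In all 3 pairs, 21 were higher and 5 lower under C16. Over all 15046 genes tested, 4209 were higher and 4539 lower in all 3 pairs, and 10.4% rose and 13.8% fell with the block. Eda2r, a death receptor, stood at 65.6, 11.2 and 69.9 CPM under C16, against 26.7, 2.74 and 27.2 CPM under DMSO (log2 1.52 ± 0.18 with the block, adjusted p = 0.00322). Phlda3, an inhibitor of AKT, stood at 66.2, 26.6 and 75.8 CPM under C16, against 38.4, 6.09 and 31.6 CPM under DMSO (log2 1.36 ± 0.23 with the block, adjusted p = 0.00797). In each pair both genes were higher under C16, and the groups overlapped because replicate 2 was low. Zfp365 and Ddit4l rose with the block by 1.91 ± 0.25 and 2.41 ± 0.52 (adjusted p = 0.00418 and 0.0183). Cdkn1a, the p21 inhibitor of the cell cycle, stood at 585, 260 and 635 CPM under C16, against 450, 223 and 392 CPM under DMSO (log2 0.44 ± 0.10 with the block, adjusted p = 0.0204).

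The genes of the proteins that the study set out to inhibit did not pass the test. Wdr5 (chromosome 2, 27405159 to 27426547) stood at 129, 173 and 123 CPM under C16 and at 142, 163 and 142 CPM under DMSO (log2 −0.08 ± 0.15, adjusted p = 0.797, and adjusted p = 0.452 with the block). Kmt2a stood at 166, 151 and 171 CPM under C16 and at 181, 156 and 192 CPM under DMSO (log2 −0.12 ± 0.11, adjusted p = 0.564). Men1, encoding menin, had a log2 change of −0.12 ± 0.22 (adjusted p = 0.796). Of 26 genes of the WDR5, MLL and menin complexes tested, 0 were called without the block, and 2 rose and 1 fell with it. With the block, 10.4% of all genes tested rose and 13.8% fell. Among classic MLL1 targets, Hoxa9 (chromosome 6, 52200077 to 52203169) stood at 2.82, 6.77 and 3.05 CPM under C16 and at 3.26, 5.14 and 3.68 CPM under DMSO (log2 0.07 ± 0.38, adjusted p = 0.934). Hoxa7 had a log2 change of −0.36 ± 0.36 (adjusted p = 0.592). Meis1, which pairs with HOX proteins on DNA, rose with the block at 88.4, 23.5 and 97.2 CPM under C16, against 59.6, 18.7 and 55.3 CPM under DMSO (log2 0.57 ± 0.14, adjusted p = 0.027). Of 17 HOXA and MLL target genes tested, 0 were called without the block, and 3 rose and 0 fell with it.

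Against the second compound in the same cells, the same test called 812 genes higher and 977 lower under C16 than under RE (5.4% and 6.49% of those tested), or 2368 and 2777 with the block (15.7% and 18.5%, 34.2% in all). This tests C16 against RE directly, so the shared DMSO libraries do not enter the difference. Doses and times are not known, so they may not match. Hoxa9 was higher under C16, at 2.82, 6.77 and 3.05 CPM against 0.56, 0.845 and 0.705 CPM under RE (log2 2.57, adjusted p = 0.0137). Hoxa7 was higher as well (log2 2.31, adjusted p = 0.0151), and so was Cd34, the stem cell surface marker, at 116, 125 and 118 CPM under C16 against 50.7, 44.6 and 65.8 CPM under RE (log2 1.16, adjusted p = 0.00871). Against DMSO in WT cells, the log2 change of Cd34 under C16 was only 0.25. In ribosome biogenesis, 32 of 37 genes tested were higher under C16 in this contrast, or 37 of 37 with the block. Eosinophil genes were lower under C16 for 5 of 10, or 10 of 10 with the block, and interferon genes for 14 of 33, or 27 of 33 with the block. Epx stood at 119, 138 and 126 CPM under RE (C16 against RE, log2 −3.88, adjusted p = 0.0049). Ass1 and Slc26a3 were higher under C16 than under RE too (log2 1.32 and 3.27, adjusted p = 0.00515 and 0.00879).

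Cells carrying AE9a were given the same compound, and the difference between the genotypes' responses was tested in a fit of all 18 libraries. The response of WT cells minus that of AE9a cells was positive for 1310 genes and negative for 755 of 15809 tested (8.29% and 4.78%), or 2743 and 3070 with the block (17.4% and 19.4%). Counts came as a table for each genotype, and genotype and batch cannot be told apart. Megakaryocyte genes fell in AE9a cells, whereas they rose in replicates 1 and 3 of WT cells. With the block, the difference was positive for 21 of 22 genes and negative for 0. In AE9a cells, where 33.1% of genes tested rose and 33.2% fell (66.3% in all), 15 fell under C16 and 0 rose. The median log2 change was −1.58 in AE9a cells and 1.78 in WT cells, both without the block. In pair 2 of WT cells alone the median difference was −0.36. Without the block the difference passed for 3 of 22 genes. Ppbp reached only 0.403, 0.476 and 0 CPM under C16 and 16.1, 8.84 and 3.85 CPM under DMSO in AE9a cells. The fall of eosinophil genes was found in both genotypes, at a median of −2.14 in WT cells and −2.14 in AE9a cells. Of 10 tested in AE9a cells, 7 fell and 1 rose. Gene by gene the responses were not equal, with a median difference WT minus AE9a of −0.63. That difference was positive for 1 and negative for 1 without the block, and positive for 1 and negative for 3 with it. Of 26 erythroid genes tested in AE9a cells, 23 fell under C16, and the difference WT minus AE9a was positive for 16 of the 26 without the block and negative for 0. Pcdh7 stood at 7.82, 8.06 and 4.88 CPM under C16 and 33.0, 38.2 and 34.3 CPM under DMSO in AE9a cells, the reverse of its rise in WT cells (difference log2 3.90 ± 0.34, adjusted p = 2.73e-05).

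**Figure D4:**
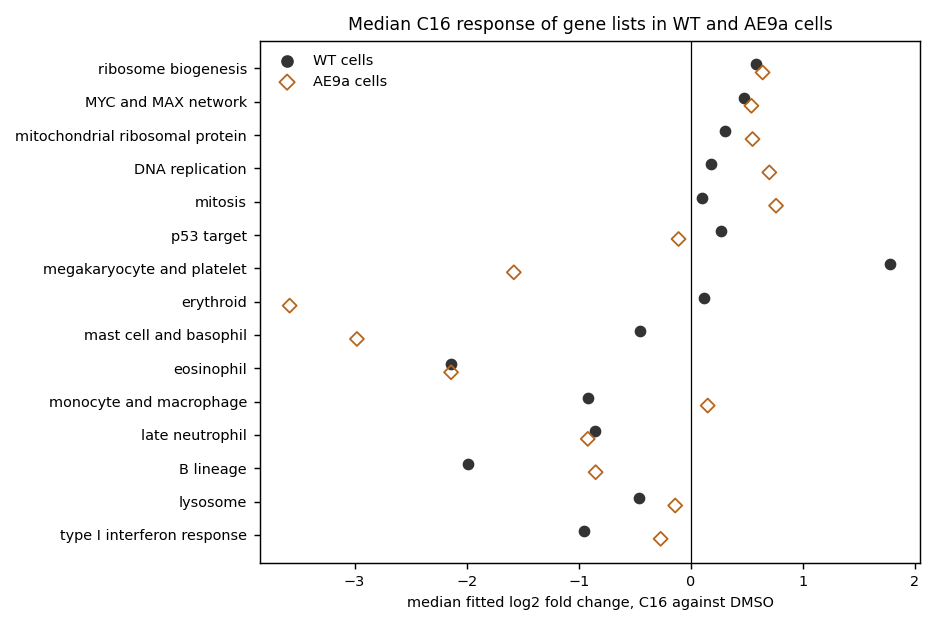
Median fitted log2 fold change of C16 against DMSO over the tested genes of 15 lists, in WT cells (filled circles) and AE9a cells (open diamonds), each from the fit of its own genotype without a block. The medians lie on opposite sides of 0 for megakaryocyte and platelet, erythroid, p53 target, and monocyte and macrophage genes, and close together for ribosome biogenesis, MYC network, eosinophil and late neutrophil genes.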

How the data were processed

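RNA of cKit-selected bone marrow cells was counted in 18 libraries, 9 of them WT. The deposited tables hold raw counts of fragments per gene on GRCm39, which the authors made by counting read pairs over exons without regard to strand, per the file headers (featureCounts 1.6.2). Per the submitters' processing notes, FastQC 0.11.9, fastp 0.23.2, HISAT2 2.1.0 and featureCounts 2.0.3 were used; which featureCounts version made the tables is not settled. Overlapping, antisense and near-identical genes may share fragments.

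From these counts, genes kept by filterByExpr were scaled by TMM and tested in the 9 WT libraries with edgeR 4.0.16 (R 4.3.3), quasi-likelihood F test, Benjamini-Hochberg threshold 0.05, and errors are standard errors of the fitted log2 change. Responses of the genotypes were compared in all 18 libraries. Alternatives were the replicate block, DESeq2 1.42.0, limma-voom 3.58.1, other scalings, filters and sets of libraries. The scripts were tested on simulated data.

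Same-number C16 and DMSO libraries deviated together from their group means (correlations 0.68, 0.79 and 0.68), and by the rule used the numbers pair the libraries. Between replicates 1 and 3 alone the correlation of the differences was 0.1, so the pairing rests mainly on replicate 2.

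Genes named were the 12 largest rises and falls with the block in the same direction in all 3 pairs, the 10 largest without it whose groups did not overlap (predicted genes left out), up to 4 per list called with the block, all at 5 CPM or more in the higher group, and preset genes. A few others (Ighm) were chosen after their values were seen. The members, the 36 lists and the alternatives were chosen with earlier results of these data known.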

Additional observations from a re-analysis of the deposited data

Results flagged for a closer look

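The response to C16 differed between WT and AE9a cells by a test of the difference itself for 2065 genes (edgeR's quasi-likelihood test with Benjamini-Hochberg adjustment). Among 99 genes checked by name, the difference, WT minus AE9a in log2, passed for 23, 14 of them positive and 9 negative. Over all 15809 genes tested it passed for 13.1%, with 8.29% positive and 4.78% negative. Many of the 99 were named for their change under C16 in WT cells, which is part of the difference. A higher share among the 99 is therefore partly set by that choice and is no separate result. Genotype and batch cannot be told apart.

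Positive differences were found for Adgrl1 (5.30), Ass1 (1.28), Clca3a1 (9.23), Gata1 (3.36), Gata2 (1.91), Hdc (3.23), Igfbp5 (5.86), Il4 (2.52), Kit (2.05), Lhfpl6 (7.04), Mitf (1.19), Nefh (2.78), Pcdh7 (3.90) and Runx1 (1.27). Adgrl1, Nefh and Pcdh7 rose under C16 in WT cells and fell in AE9a cells, where their log2 changes were −3.44, −1.53 and −2.34. Kit and Runx1 had log2 changes of 0.19 and 0.04 in WT cells, neither called, and fell by 1.92 and 1.29 in AE9a cells. Gata2, Hdc, Il4 and Mitf had negative log2 changes in both genotypes. These were −0.53, −0.80, −0.82 and −0.77 in WT cells and −2.49, −4.08, −3.36 and −2.02 in AE9a cells.

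Negative differences were found for Arhgef37 (−3.88), Cd34 (−0.64), Cd79b (−1.59), Ctsh (−1.36), Grn (−0.91), Ifi209 (−2.78), Naglu (−0.71), Scel (−2.67) and Snhg11 (−2.94). Grn and Naglu fell in both genotypes, further in WT cells, where the log2 changes were −1.34 and −1.15 against −0.48 and −0.49 in AE9a cells. Cd34 had positive log2 changes in both, 0.25 in WT cells and 0.84 in AE9a cells.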

How the results depend on the processing

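The C16 against DMSO count of 467 genes moved to 3646 with the replicate block, 1878 in DESeq2, 206 with no low-count filter, 6341 without WT replicate 2 in all groups, 81 in the 6 libraries only and 2999 in all 18 libraries. With the block it was 3682 in DESeq2, 3670 under RLE scaling, 3582 under upper-quartile scaling, 2939 in the 6 libraries only, 0 without replicate 1, 6171 without replicate 2 and 3 without replicate 3. Leaving out 1 library at a time gave 0 to 1329 genes. The share of higher genes was 30.8% in the fit reported, 47.8% in DESeq2, 45.2% with a filter of 1 CPM in 3 libraries and 18.4% with no filter. The C16 against RE count of 1789 moved to 5145 with the block, 3172 in DESeq2, 920 with no filter and 6737 without WT replicate 2, and leaving out 1 library gave 302 to 2161. The genotype difference of 2065 moved to 5813 with the block and 8038 without WT replicate 2, and leaving out 1 library gave 1084 to 6394. The causes were not tested. RLE and upper-quartile scaling moved no median of all genes by more than 0.1. Of 99 genes checked, 0 changed sign with a call under any alternative, and 4 changed sign without a call by more than their standard error. With the replicate block 61 gained a call, and 26 lost theirs without C16 replicate 1, C16 replicate 3 or DMSO replicate 1. Many of the 99 were named for a call with the block, some also for the same direction in all 3 pairs. The kept signs and the gained calls were therefore partly set by that choice and are no separate check. The 4 were Hoxa9 and Mpo, at −0.46 and −0.97 without C16 replicate 2 against 0.07 and 0.19 with it, and Fcnb and Elane, at 0.38 and 0.99 without DMSO replicate 2 against −1.58 and −0.61 with it. At this depth, genes under about 0.146 to 0.173 CPM, the floor of 3 fragments, cannot be told from 0.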

Other observations

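Of 19 dendritic cell and MHC class II genes tested, 1 fell without the replicate block (4 in DESeq2) and 6 with it, and 0 rose in any of these fits. Without the replicate 2 libraries 11 fell and 1 rose. Of 22 glycolysis genes tested, 0 were called without the block (1 fell in DESeq2), 6 fell and 0 rose with it, and without the replicate 2 libraries 10 fell and 4 rose. Over all genes, 0.957% rose and 2.15% fell without the block, 10.4% and 13.8% with it, and 20.8% and 20.9% without the replicate 2 libraries. The share of glycolysis genes that rose in the last fit was near that of all genes. Fcnb, the ficolin gene of myeloid precursors, stood at 2.05, 42.1 and 1.55 CPM under C16, against 10.9, 113 and 12.3 CPM under DMSO (edgeR with the block, log2 −2.15 ± 0.30, adjusted p = 0.00456). Elane, the neutrophil elastase gene, fell with the block as well (log2 −0.97 ± 0.22, adjusted p = 0.0214), while Mpo, of the same granules, had a log2 change of 0.04 ± 0.14 with the block (adjusted p = 0.865). Bmf, which promotes cell death by binding BCL2 proteins, stood at 5.58, 5.54 and 4.23 CPM under C16, against 12.5, 19.8 and 10.8 CPM under DMSO (log2 −1.44 ± 0.21 with the block, adjusted p = 0.00578). Il1a, which encodes interleukin 1 alpha and is made by megakaryocytes and macrophages among others, stood at 19.9, 0.257 and 28.4 CPM under C16, against 3.49, 0.503 and 4.70 CPM under DMSO (log2 2.19 ± 0.60 with the block, adjusted p = 0.0369). Its replicate 2 libraries were both low, as for the platelet genes.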
